A study of Mus musculus with 12 samples.

Results

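The 34 genes described here belong to glucose and lactate transport, glycolysis, the pentose phosphate pathway and the cellular response to low oxygen. They were taken by name and not by their measured values, although earlier results of these data were known when they were chosen. Each was found by its Ensembl identifier among the 32688 genes of the count table. They comprise 3 transporters (Slc2a1, Slc16a1, Slc16a3), the upper glycolytic genes Hk1, Hk2, Hk3 and Gpi1, 5 phosphofructokinase genes (Pfkl, Pfkp, Pfkm, Pfkfb3, Pfkfb4), 10 genes of lower glycolysis (Aldoa, Aldoc, Tpi1, Gapdh, Pgk1, Pgam1, Eno1, Eno2, Pkm, Ldha), 2 pyruvate dehydrogenase kinases (Pdk1, Pdk3), 6 pentose phosphate genes (G6pdx, Pgd, Taldo1, Tkt, Rpia, Rpe) and 4 genes of the hypoxia response (Hif1a, Vegfa, Bnip3, Egln3). Of these, 33 had enough reads to be tested. Egln3, a prolyl hydroxylase that marks HIF1A for degradation, had 2 counts in 1 Null etoposide library and 0 in the other 11 libraries, and a count of 0 allows up to 3 counts, or 0.0485 to 0.101 CPM (counts scaled to a common library size), in those libraries by counting error alone.

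RNA was sequenced from RAW264.7 cells, a mouse macrophage line transformed by Abelson leukaemia virus. A Null line and a TFEB/TFE3 DKO line, in which CRISPR editing had targeted both transcription factor genes, were kept either without drug or with etoposide at 100 µM over 8 h, with 3 libraries in each of the 4 groups. Null is the word of the labels for the control line, and the text of the study calls its RAW264.7 control cells wild type. Etoposide traps topoisomerase II on DNA and leaves strand breaks, and the study asked how TFEB and TFE3 bear on the response to such damage. Every group was grown in the same high-glucose medium, which also held pyruvate, a stabilised glutamine (GlutaMAX) and 10% fetal bovine serum, and no label names a change of oxygen. The control cells are untreated according to the labels and had received DMSO according to the methods of the study, and no label names more than 1 line per genotype, so a difference between genotypes cannot be told apart from one between lines. The study calls its samples independent, but no label says whether the 3 libraries of a group came from separate cultures, so p values measure the spread between these libraries, which may be technical.

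Glycolysis converts glucose to pyruvate. Glucose enters the cell through transporters such as GLUT1 (Slc2a1), is phosphorylated by hexokinases and committed to breakdown by phosphofructokinase, and the pyruvate formed at the end is either oxidised in mitochondria or reduced to lactate and exported. The pentose phosphate pathway branches off after hexokinase and yields NADPH and ribose phosphates. HIF1A, the oxygen-regulated subunit of hypoxia-inducible factor, activates many glycolytic genes when oxygen is low, and in macrophages also during inflammatory activation.

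Library totals ran from 29837255 to 61809316 counts. Tfeb and Tfe3 were lower in the DKO line, with log2 differences (± SE) of -1.95 ± 0.16 in control and -0.79 ± 0.16 in etoposide-treated cells for Tfeb and -1.47 ± 0.12 and -1.43 ± 0.12 for Tfe3. All 8 macrophage markers examined were detected in every library, with a summed level of 4832 to 5132 CPM in Null control, 4313 to 4546 in Null etoposide, 4193 to 4346 in DKO control and 4585 to 4775 CPM in DKO etoposide libraries. Of these 8 markers, 5 and 7 passed the test for the drug in Null and DKO cells and 6 and 4 for genotype in control and treated cells (62.5, 87.5, 75.0 and 50%, against 39.6, 39.3, 19.3 and 33.6% of all tested genes), and 3 for the interaction (37.5% against 9.45%). Fcgr1, the high-affinity IgG receptor and the lowest of the 8, gave 66.9 to 74.3 CPM in Null control, 36.3 to 37.3 in Null etoposide, 28.4 to 30.4 in DKO control and 4.72 to 5.42 CPM in DKO etoposide libraries. The part of these markers in the differences between groups was not tested. The titles of the 3 DKO etoposide libraries carry the word MEFs, and 8 fibroblast markers summed to 0.152 to 0.928 CPM in control and 1.01 to 2.04 CPM in etoposide libraries, where Null libraries were the highest. Mitochondrial transcripts took 14.1 to 18.3% of the counts in Null control, 19.4 to 21.7% in Null etoposide and 16.6 to 18.1% in DKO libraries. Most of this was the mitochondrial ribosomal RNA mt-Rnr2, at 10.8% (Null control replicate 1) to 17.9% (Null etoposide replicate 1) of all counts. DKO control replicate 1 stood apart from its group: the median squared difference between its counts and those of the other DKO control libraries was 57.2 and 70.3 times that of counting error, against 3.61 to 47.1 times for the 10 other pairs within groups (genes with at least 200 counts). The value of 47.1 was that of Null control replicates 1 and 3. Such a ratio also grows with depth, and Null control replicate 1 was the smallest library (29837255 counts).

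Among the 33 tested genes, those with the largest rise or fall in the 4 comparisons between pairs of groups were Eno2, Pfkp, Vegfa, Hk3 and Aldoc, and the 250 bases upstream of their RefSeq start sites (GRCm38.p6) are printed here because these genes mark the ends of the range of differences. In the GENCODE annotation of the same build Eno2 (ENSMUSG00000004267.16) spans chr6:124760053-124769673, Pfkp (ENSMUSG00000021196.13) spans chr13:6579768-6648777, Vegfa (ENSMUSG00000023951.16) spans chr17:46016993-46032369, Hk3 (ENSMUSG00000025877.14) spans chr13:55005985-55021385 and Aldoc (ENSMUSG00000017390.15) spans chr11:78322968-78327781, all protein coding. The windows of Pfkp and Aldoc reach into the GENCODE gene, which begins upstream of the RefSeq start. Capitals mark each match, on either strand, to the core of the HIF response element (ACGTG or GCGTG) or to the E-box CACGTG, which contains that core.
Eno2, chr6:124769674-124769923, minus strand: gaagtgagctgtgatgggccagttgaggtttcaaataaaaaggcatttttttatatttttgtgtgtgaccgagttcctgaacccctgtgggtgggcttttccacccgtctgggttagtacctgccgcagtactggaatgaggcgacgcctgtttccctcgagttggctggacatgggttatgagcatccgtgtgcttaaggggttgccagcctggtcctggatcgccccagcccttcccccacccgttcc
Pfkp, chr13:6648772-6649021, minus strand: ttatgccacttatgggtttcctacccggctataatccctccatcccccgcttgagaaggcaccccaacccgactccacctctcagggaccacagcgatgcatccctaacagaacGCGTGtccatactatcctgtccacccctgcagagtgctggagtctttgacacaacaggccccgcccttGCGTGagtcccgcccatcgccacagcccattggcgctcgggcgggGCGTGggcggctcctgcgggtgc
Vegfa, chr17:46032378-46032627, minus strand: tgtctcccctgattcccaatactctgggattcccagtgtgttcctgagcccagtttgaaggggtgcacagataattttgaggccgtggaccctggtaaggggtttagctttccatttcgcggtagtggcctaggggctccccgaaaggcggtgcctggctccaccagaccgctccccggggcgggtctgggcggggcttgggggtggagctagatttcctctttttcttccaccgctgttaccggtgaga
Hk3, chr13:55021386-55021635, minus strand: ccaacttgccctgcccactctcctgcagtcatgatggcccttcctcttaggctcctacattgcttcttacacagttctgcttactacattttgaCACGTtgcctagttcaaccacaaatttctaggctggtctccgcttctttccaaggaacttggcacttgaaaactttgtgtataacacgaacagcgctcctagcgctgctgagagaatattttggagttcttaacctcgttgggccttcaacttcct
Aldoc, chr11:78322823-78323072, plus strand: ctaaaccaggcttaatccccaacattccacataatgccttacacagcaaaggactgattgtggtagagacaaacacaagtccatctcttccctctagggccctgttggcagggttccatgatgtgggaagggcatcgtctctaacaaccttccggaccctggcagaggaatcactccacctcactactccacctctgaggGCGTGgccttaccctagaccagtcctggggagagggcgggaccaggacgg
Pfkp had 3 matches, Hk3 and Aldoc had 1 each, and Eno2 and Vegfa had none in this window, which says only that these letters are not in it. Over all 34 genes, 26 (76.5%) held the HIF core, against 38.6% of the 27025 promoters of the same length in the table. The E-box was present in 5 of the 34 (14.7%; 6.04% of all promoters) and its form TCACGTG, the core of the element recognised by TFEB and TFE3, in 3 (8.82%; 3.13%), namely those of Slc16a1, Pfkm and Hif1a. A match is a description of the letters and not a binding site.

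The first question was how Null cells responded to etoposide. Vegfa (vascular endothelial growth factor A), the platelet-type phosphofructokinase Pfkp and Hk2 (hexokinase 2) fell to 0.439, 0.439 and 0.525 times their control levels, while Eno2, the neuronal enolase, rose 8.19-fold from a low level. In bulk RNA, fewer cells expressing a gene and less RNA per cell cannot be told apart. In all, 12 of the 33 tested genes were called at an adjusted p under 0.05 (limma-trend on log2 CPM, Benjamini-Hochberg adjustment over the 18066 genes tested), 3 of them higher and 9 lower, which is 36.4% where 39.6% of all tested genes were called (20.9% higher and 18.7% lower). The higher genes were Slc2a1, Aldoc and Eno2, and the lower ones Hk1, Hk2, Pfkp, Pfkfb3, Pgk1, Pkm, Pdk1, Rpia and Vegfa. The median log2 difference was -0.13 over the 33 genes and 0.026 over all tested genes.

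In DKO cells the same drug gave 10 calls, 5 higher and 5 lower, or 30.3% of the genes against 39.3% of all tested genes (20.2% higher and 19.1% lower). Slc2a1, Aldoc, Pgam1, Eno2 and Ldha rose, and Slc16a1, Hk2, Pfkp, Pdk1 and Vegfa fell. The balance of directions moved with the processing: 8 were higher and 5 lower with library size alone, 10 and 5 without DKO control replicate 1, and 6 and 9 after a correction for GC content and length. The median was 0.0047, against 0.029 over all tested genes. The Null and DKO responses share no library, and 7 genes were called in both, all in the same direction: Slc2a1, Aldoc and Eno2 rose and Hk2, Pfkp, Pdk1 and Vegfa fell. They make up 58.3% of the Null calls and 70.0% of the DKO calls, where the genes called in both lines make up 69.3% and 69.7% of the calls among all tested genes.

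**Figure D1:**
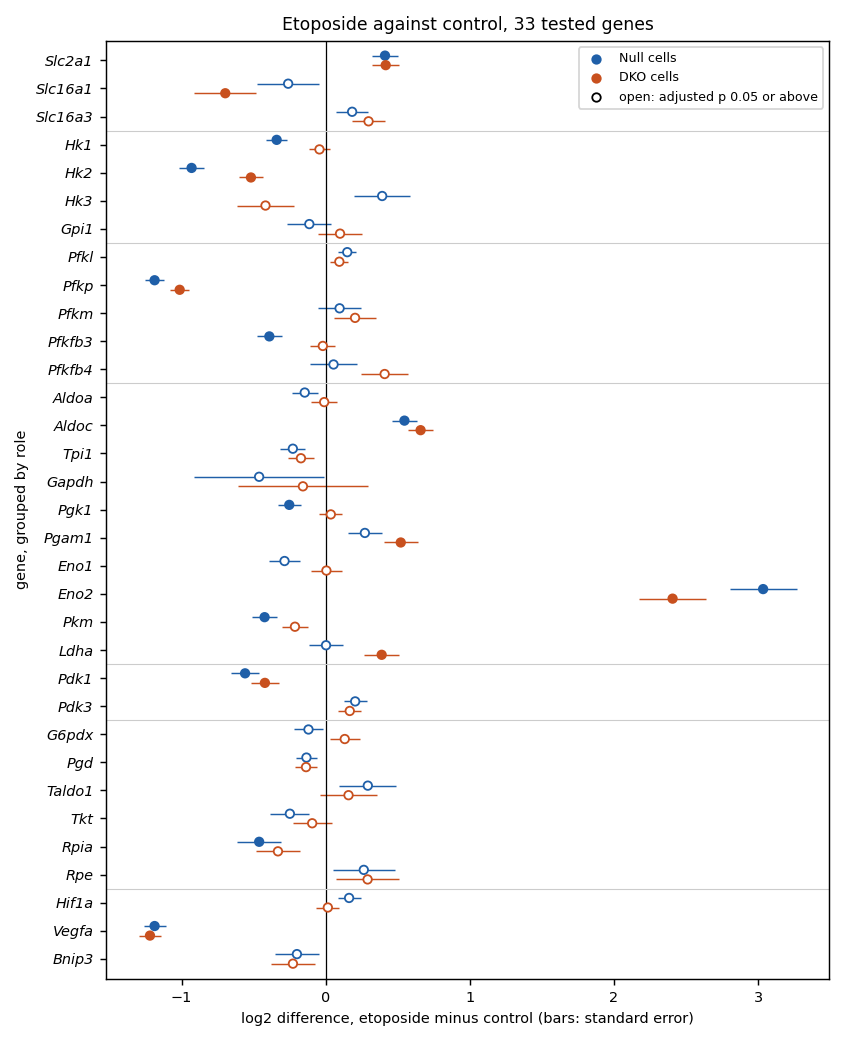
Log2 difference between etoposide and control for each of the 33 tested genes, grouped by role, in Null cells (blue) and DKO cells (orange); points are the fitted differences, bars their standard errors, and filled points have an adjusted p under 0.05. Eno2 lies far to the right in both lines, at 3.03 and 2.41, and Pfkp and Vegfa lie beyond -1 in both.

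Comparing the lines without drug, DKO control cells had 1.97 times the Pgd (6-phosphogluconate dehydrogenase), 1.87 times the Aldoc and 1.72 times the Pkm (pyruvate kinase M) of Null control cells, and 0.222 times the Hk3. Here 13 of the 33 genes were called, 9 higher (Slc2a1, Pfkfb4, Aldoc, Eno2, Pkm, G6pdx, Pgd, Taldo1, Hif1a) and 4 lower (Slc16a3, Hk3, Pfkl, Pfkfb3) in DKO cells, or 39.4% against 19.3% of all tested genes (10.9% higher and 8.39% lower). Without DKO control replicate 1 there were 9 higher and 9 lower genes, and in the fit of the control libraries alone 4 higher and 4 lower, so the excess of higher genes was not seen in those fits. They called 4721 of 18514 and 2070 of 18066 tested genes, against 3490 of 18066 in the main fit. After etoposide the lines differed in 15 genes, 11 higher (Slc2a1, Hk1, Hk2, Pfkfb4, Aldoa, Aldoc, Pgk1, Pkm, G6pdx, Pgd, Taldo1) and 4 lower (Slc16a1, Slc16a3, Hk3, Pfkl) in DKO cells, or 45.5% against 33.6% (15.9% higher and 17.8% lower). In the fit of the etoposide libraries alone 15 were higher and 5 lower, with Gpi1, Eno2, Ldha and Bnip3 added among the higher genes and Rpe among the lower. That fit called 8272 of all 18066 tested genes, against 6079 in the fit of all libraries. In every group the 33 genes varied less between replicates than all tested genes. The median SD (log2) was 0.139 against 0.209 in Null control and 0.179 against 0.235 in DKO control cells. The part of this in the shares called was not tested. The medians of the 33 genes were -0.020 in control cells and 0.12 after etoposide, where those of all tested genes were -0.00085 and -0.012. These 2 comparisons share no library either, and 10 genes were called in both, each in 1 direction (76.9% of the first list and 66.7% of the second, against 73.3% and 42.1% among all tested genes): Slc2a1, Pfkfb4, Aldoc, Pkm, G6pdx, Pgd and Taldo1 higher, and Slc16a3, Hk3 and Pfkl lower.

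**Figure D2:**
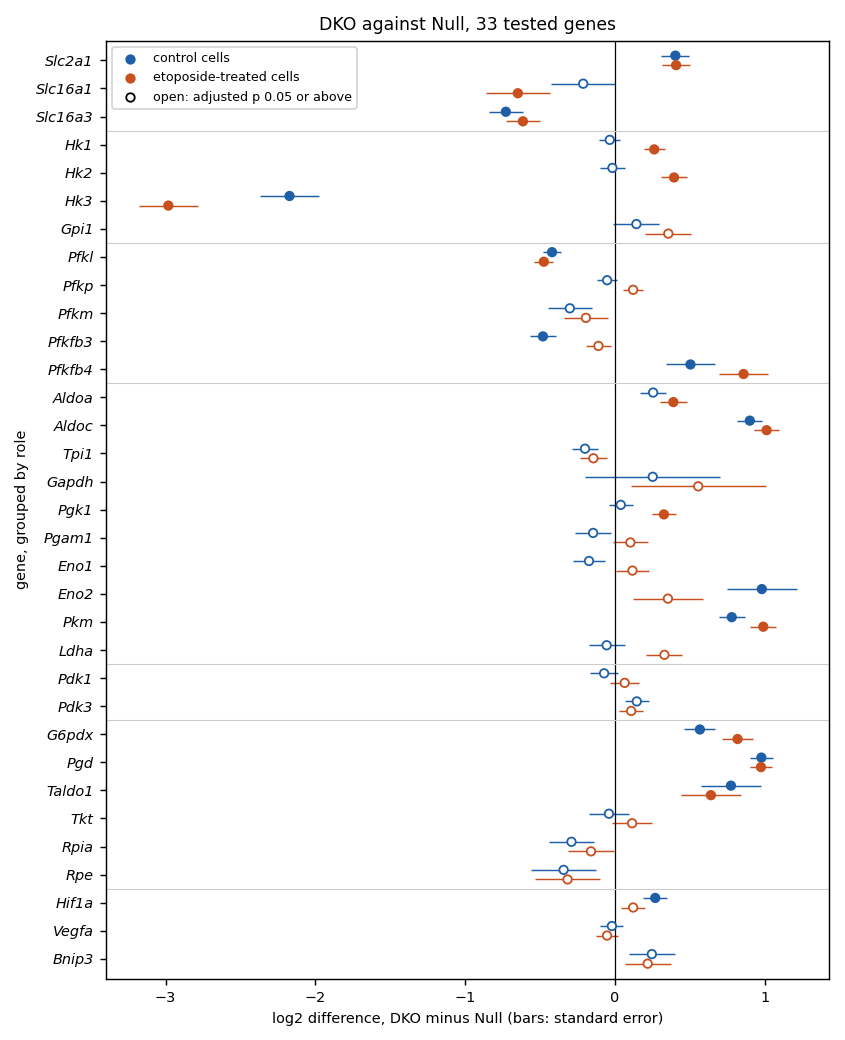
Log2 difference between DKO and Null cells for each of the 33 tested genes, grouped by role, in control (blue) and etoposide-treated cells (orange); points are fitted differences, bars standard errors, and filled points have an adjusted p under 0.05. Hk3 lies at -2.17 and -2.98, while Aldoc, Pkm and Pgd lie between 0.78 and 1.01 in both conditions.

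Together the 34 genes took 1.13 to 1.29% of all counts in Null control libraries, 0.964 to 1.03% in Null etoposide, 1.46 to 1.62% in DKO control and 1.45 to 1.51% in DKO etoposide libraries. Without Pkm the shares were 0.636 to 0.721%, 0.583 to 0.614%, 0.676 to 0.719% and 0.691 to 0.730% in the same order, so that the ranges of Null control and DKO control libraries overlapped once Pkm was left out. Per kilobase of exon, Pkm stood highest of the 34 genes in every group, at a mean of 1034 CPM per kb in Null control and 1779.8 in DKO control cells, followed by Aldoa at 362 and 431. Pgk1, Gapdh, Tpi1, Ldha, Gpi1 and Eno1 followed at 171, 153, 150.2, 124, 121 and 114 CPM per kb in Null control cells, an order that is not resolved, since Gapdh alone varied 2.89-fold between the libraries of that group. At the low end were Pfkfb3 and Pfkfb4 at 2.49 and 2.60 CPM per kb, and Eno2 at 0.134.

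**Figure D3:**
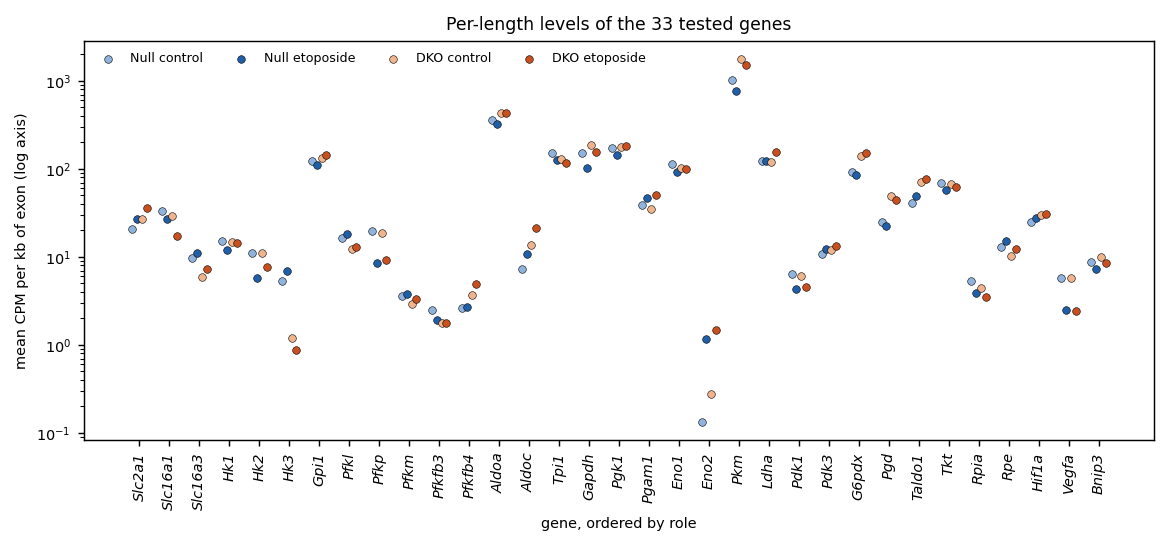
Mean level of each of the 33 tested genes in CPM per kb of exon on a log axis, ordered by role, with 1 point per group. Pkm is highest in all 4 groups, and Eno2 runs from 0.134 in Null control to 1.48 CPM per kb in DKO etoposide cells.

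Slc2a1 encodes GLUT1, the basal glucose transporter. Its levels were 66.5, 74.4 and 75.5 CPM in the 3 Null control libraries and 94.4, 97.7 and 95.3 CPM after etoposide. In the DKO line they were 108, 95.8 and 83.9 CPM in control and 129, 135 and 118 CPM in etoposide-treated cells. In none of the 4 comparisons did the groups overlap, and each gave a difference of similar size: 0.41 ± 0.093, adjusted p = 0.00369 for the drug in Null cells, 0.42 ± 0.093, adjusted p = 0.00341 for the drug in DKO cells, 0.40 ± 0.093, adjusted p = 0.00798 for genotype in control cells and 0.41 ± 0.093, adjusted p = 0.00464 for genotype after etoposide (log2 difference ± SE). The genotype difference in control cells missed the threshold when the 6 control libraries were fitted alone (0.40, adjusted p = 0.0763).

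The monocarboxylate transporters Slc16a1 (MCT1) and Slc16a3 (MCT4), of which MCT4 mainly exports lactate, both had lower levels in DKO cells after the drug. For Slc16a3 the libraries gave 49.7, 52.03 and 54.03 CPM in Null control, 55.1, 59.4 and 62.5 in Null etoposide, 36.5, 30.6 and 27.4 in DKO control and 38.7, 43.3 and 34.03 CPM in DKO etoposide cells. Every DKO library lay below every Null library, and the genotype difference was -0.73 ± 0.11, adjusted p = 0.000427 in control and -0.61 ± 0.11, adjusted p = 0.00100 in etoposide-treated cells. The drug response of Slc16a3 did not pass the test in either line (0.18 ± 0.11, adjusted p = 0.222 in Null and 0.30 ± 0.11, adjusted p = 0.0529 in DKO cells), although in DKO cells it passed without DKO control replicate 1 (0.42, adjusted p = 0.00541) or DKO etoposide replicate 3 (0.39, adjusted p = 0.0216), with library size alone (0.36, adjusted p = 0.0357), with the size factors of DESeq2 (0.30, adjusted p = 0.0384) and in the DESeq2 test (0.30, adjusted p = 0.0306). Slc16a1 was more variable, with 114, 139.9 and 188 CPM in Null control, 117, 125 and 119 in Null etoposide, 177, 107 and 102 in DKO control and 75.7, 90.7 and 65.9 CPM in DKO etoposide libraries. The DKO etoposide libraries were the lowest of the 12, below DKO control (-0.70 ± 0.21, adjusted p = 0.0210) and below Null etoposide cells (-0.65 ± 0.21, adjusted p = 0.0340). The drop with the drug in DKO cells was lost without DKO control replicate 1 (-0.44, adjusted p = 0.0631), which was the highest library of its group, and without DKO etoposide replicate 1 (adjusted p = 0.0630) or 3 (0.0826). The genotype difference after etoposide was lost without Null etoposide replicate 1, 2 or 3 (adjusted p = 0.0773, 0.0960 and 0.0817) and without DKO etoposide replicate 1 or 3 (0.0903 and 0.126).

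Hexokinases trap glucose in the cell as glucose 6-phosphate. Hk3, an isozyme of blood cells, had the largest genotype difference of the 33 genes. The Null control libraries gave 16.5, 19.4 and 22.8 CPM and the Null etoposide libraries 24.9, 25.9 and 25.7 CPM, against 5.69, 4.11 and 3.29 CPM in DKO control and 3.49, 3.66 and 2.499 CPM in DKO etoposide libraries. Each of the 6 DKO libraries lay far below each of the 6 Null libraries, and DKO cells held 0.222 times the Null level in control cells (log2 -2.17 ± 0.20, adjusted p = 4.62e-06) and 0.127 times after etoposide (-2.98 ± 0.20, adjusted p = 1.57e-07). With the drug, Hk3 differed by 0.39 ± 0.20, adjusted p = 0.136 in Null cells, where the groups did not overlap, and by -0.42 ± 0.20, adjusted p = 0.114 in DKO cells, where they did. The difference between these responses was -0.81 ± 0.28, adjusted p = 0.101 and passed only without DKO control replicate 3 (-0.99, adjusted p = 0.0347) or in DESeq2 (-0.81, adjusted p = 0.0291); the DKO response alone also passed without that library (-0.60, adjusted p = 0.0299) and after the correction for GC content and length (-0.61, adjusted p = 0.0319), and the Null response in the fit of the Null libraries alone (0.39, adjusted p = 0.0287).

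Hk2, the inducible isozyme, fell in both lines. Its levels went from 63.4, 65.2 and 70.8 CPM to 36.3, 34.9 and 33.3 CPM in Null cells and from 74.2, 63.2 and 60.3 CPM to 46.5, 46.7 and 44.3 CPM in DKO cells. The control libraries of the lines overlapped, and after etoposide the 3 DKO libraries lay above the 3 Null libraries. The fall was -0.93 ± 0.084, adjusted p = 2.93e-06 in Null and -0.52 ± 0.084, adjusted p = 0.000357 in DKO cells, and the lines differed by 0.40 ± 0.084, adjusted p = 0.00300 after etoposide. The difference between the falls was 0.41 ± 0.12, adjusted p = 0.0502, just short of the threshold, and passed without Null control replicate 1 (0.45, adjusted p = 0.0449) or DKO control replicate 1 (0.52, adjusted p = 0.00471), with scaling by library size alone (0.45, adjusted p = 0.0491) or by the size factors of DESeq2 (0.43, adjusted p = 0.0321), and in the DESeq2 test (0.42, adjusted p = 0.00839). Hk1, the constitutive isozyme, gave 138, 132 and 122 CPM in Null control, 103, 106 and 101 in Null etoposide, 121, 137 and 125 in DKO control and 128, 122 and 121 CPM in DKO etoposide libraries. The Null etoposide libraries were the lowest of the 12. Hk1 fell with the drug in Null cells (-0.34 ± 0.071, adjusted p = 0.00223), gave -0.043 ± 0.071, adjusted p = 0.673 in DKO cells (-0.17, adjusted p = 0.0245 after a correction for GC content and length), and after etoposide stood higher in DKO cells (0.26 ± 0.071, adjusted p = 0.0131). That last call was lost without Null etoposide replicate 3 (0.25, adjusted p = 0.0571) and after the correction for GC content and length (0.14, adjusted p = 0.0721). The difference between the drug responses of Hk1 was 0.30 ± 0.10, adjusted p = 0.0979 and passed in DESeq2 (0.31, adjusted p = 0.0399). Gpi1, the isomerase that follows hexokinase, ranged from 639.8 to 1001 CPM over the 12 libraries and was called in no comparison, but passed between lines after etoposide without DKO control replicate 1 (0.36, adjusted p = 0.0237) and in the fit of the etoposide libraries alone (0.36, adjusted p = 0.00228).

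As shares of the summed per-kilobase level of the 3 hexokinases, which is a description with no test, Hk1 made up 48.3% ± 3.87 (SD, n = 3) in Null control and 48.7% ± 0.394 in Null etoposide cells, while Hk2 went from 35.03% ± 1.49 to 23.5% ± 0.848 and Hk3 from 16.7% ± 2.43 to 27.9% ± 0.745. The share of Hk3 thus passed that of Hk2 in all 3 Null etoposide libraries. In DKO cells Hk3 made up 4.33% ± 1.04 in control and 3.78% ± 0.650 after the drug, Hk2 40.6% ± 3.18 and 33.3% ± 0.462, and Hk1 55.1% ± 4.13 and 62.9% ± 0.875.

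Phosphofructokinase catalyses the committed step of glycolysis, and its platelet-type subunit gene Pfkp had the smallest adjusted p of the 33 genes in the Null drug comparison. Pfkp gave 269, 260.3 and 254 CPM in Null control and 117, 114 and 113 CPM in Null etoposide libraries, and 234, 269 and 253 CPM in DKO control and 123, 125 and 127 CPM in DKO etoposide libraries. All 6 treated libraries lay at or below 127 CPM and all 6 controls at or above 234 CPM. The fall was -1.19 ± 0.066, adjusted p = 4.83e-08 in Null and -1.01 ± 0.066, adjusted p = 1.16e-07 in DKO cells, and the lines did not differ beyond the threshold in either condition (-0.052 ± 0.066, adjusted p = 0.671 in control and 0.12 ± 0.066, adjusted p = 0.181 after etoposide). At most 10.6% of the Pfkp counts could come from Pitrm1, which overlaps its exons on the opposite strand, if the counts of Pitrm1 lie evenly along it. This reckoning supposes that reads of the opposite strand were counted for Pfkp.

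Pfkl, the liver-type subunit, was lower in DKO cells, with 106, 108 and 112 CPM in Null control, 119, 124 and 119 in Null etoposide, 84.7, 80.6 and 78.4 in DKO control and 86, 91.1 and 83.1 CPM in DKO etoposide libraries. No DKO library reached the lowest Null library, and the genotype difference was -0.42 ± 0.063, adjusted p = 0.000351 in control and -0.47 ± 0.063, adjusted p = 8.26e-05 in treated cells. The drug response of Pfkl was 0.15 ± 0.063, adjusted p = 0.0797 in Null (0.14, adjusted p = 0.0267 in DESeq2) and 0.095 ± 0.063, adjusted p = 0.266 in DKO cells. Pfkm, the muscle-type subunit, ranged from 7.59 to 13.7 CPM and was called nowhere in the full set, but without DKO control replicate 1 it passed for the drug in DKO cells (0.36, adjusted p = 0.0437) and for genotype in control cells (-0.47, adjusted p = 0.0214). Among the 3 subunit genes per kilobase, the share of Pfkp went from 49.5% ± 1.48 to 28.1% ± 0.870 with the drug in Null cells and from 55.5% ± 3.19 to 36.3% ± 1.61 in DKO cells, and that of Pfkl from 41.4% ± 1.06 to 59.3% ± 0.295 and from 35.9% ± 1.65 to 50.7% ± 0.527. Pfkl had the largest share in all 6 etoposide libraries and Pfkp in all 6 control libraries.

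**Figure D4:**
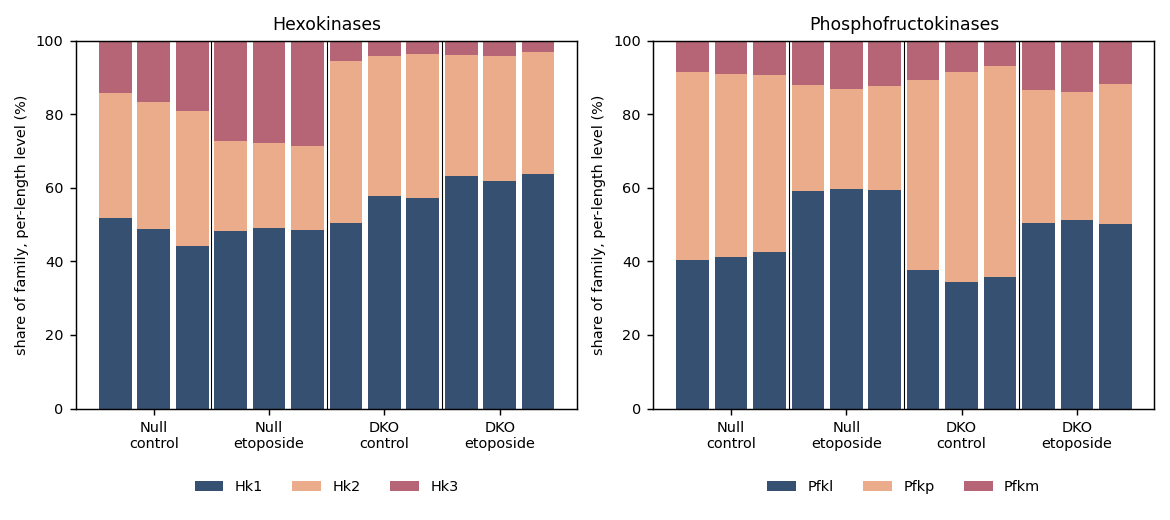
Share of each isozyme in the summed per-kilobase level of the hexokinases (left) and of the phosphofructokinase subunits (right), in percent, with 1 stacked bar per library and 3 libraries per group. Hk3 takes 27.1 to 28.6% in Null etoposide libraries and at most 5.49% in DKO libraries, and Pfkp is the smaller partner of Pfkl after etoposide in both lines.

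Pfkfb3 and Pfkfb4 encode bifunctional enzymes that set the level of fructose 2,6-bisphosphate, an activator of phosphofructokinase. Pfkfb3 gave 19.5, 18.3 and 18.8 CPM in Null control, 14.4, 14 and 14.7 in Null etoposide, 12.6, 14.99 and 12.99 in DKO control and 14.1, 12.9 and 12.9 CPM in DKO etoposide libraries. The Null control libraries stood above the other 9. Pfkfb3 fell with the drug in Null cells (-0.39 ± 0.086, adjusted p = 0.00313), gave -0.02 ± 0.086, adjusted p = 0.881 in DKO cells, and was lower in DKO than in Null control cells (-0.48 ± 0.086, adjusted p = 0.00141); the difference between the responses was 0.37 ± 0.12, adjusted p = 0.0864 and passed without DKO control replicate 2 (0.47, adjusted p = 0.0333) and in DESeq2 (0.38, adjusted p = 0.0354). Pfkfb4 was higher in DKO cells after the drug, with 10.7, 12.7 and 14.7 CPM in Null control, 11.8, 13.98 and 13.5 in Null etoposide, 22.7, 17.2 and 14.6 in DKO control and 24.2, 26.4 and 21.01 CPM in DKO etoposide libraries. The treated groups did not overlap (0.86 ± 0.16, adjusted p = 0.00133). In control cells they did overlap, by DKO control replicate 3 and Null control replicate 3, and the difference of 0.50 ± 0.16, adjusted p = 0.0483 was lost in 10 of the 12 fits that left out 1 library, those other than without Null control replicate 3 or DKO control replicate 3, with adjusted p from 0.0592 to 0.142. It was also lost with library size alone (0.42, adjusted p = 0.113), with no filter on low counts (0.50, adjusted p = 0.0678), in limma-voom (0.51, adjusted p = 0.0537), after the correction for GC content and length (0.47, adjusted p = 0.0719) and in the fit of the control libraries alone (0.50, adjusted p = 0.173). The Pfkfb4 response of DKO cells (0.41 ± 0.16, adjusted p = 0.0654) passed without DKO control replicate 1 (0.59, adjusted p = 0.00517), Null control replicate 1 (adjusted p = 0.0498) or DKO etoposide replicate 3 (adjusted p = 0.0494), with library size alone (0.47, adjusted p = 0.0466) and in DESeq2 (0.40, adjusted p = 0.0441).

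In lower glycolysis, aldolase splits fructose 1,6-bisphosphate. Aldoc, the brain-type isozyme, was the only 1 of the 10 genes of this stage called in all 4 comparisons between groups, each time upwards. Its levels were 20.9, 25.5 and 25.4 CPM in Null control, 34.5, 35.7 and 34.3 in Null etoposide, 45.6, 46.1 and 42.1 in DKO control and 69.99, 73.4 and 67.9 CPM in DKO etoposide libraries. The 4 groups formed steps with no overlap, the drug adding 0.55 ± 0.084, adjusted p = 0.000240 in Null and 0.66 ± 0.084, adjusted p = 5.04e-05 in DKO cells and the DKO line standing higher by 0.90 ± 0.084, adjusted p = 6.43e-06 in control and 1.01 ± 0.084, adjusted p = 1.32e-06 in treated cells. Aldoa made up 94.7 to 98.4% of the summed per-kilobase level of Aldoa and Aldoc in every library. It ranged from 898 to 1166 CPM in Null and from 1174 to 1329 CPM in DKO libraries and was higher in DKO cells after etoposide (0.39 ± 0.089, adjusted p = 0.00455). In control cells the Aldoa difference of 0.26 ± 0.089, adjusted p = 0.0658 passed without Null control replicate 1 (0.33, adjusted p = 0.0181) or DKO control replicate 1 (0.29, adjusted p = 0.0393), and the drug difference in Null cells, -0.15 ± 0.089, adjusted p = 0.220, passed after the correction for GC content and length (-0.30, adjusted p = 0.00662).

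Enolase forms phosphoenolpyruvate. Eno2 rose from 0.875, 0.525 and 0.495 CPM to 5.62, 4.93 and 5.81 CPM with etoposide in Null cells and from 1.16, 1.78 and 0.976 CPM to 7.12, 6.54 and 7.25 CPM in DKO cells. The lowest treated library, at 4.93 CPM, stood above the highest control, at 1.78 CPM. The rise was 3.03 ± 0.23, adjusted p = 6.98e-07 in Null and 2.41 ± 0.23, adjusted p = 4.37e-06 in DKO cells, and the difference between the rises did not pass (-0.63 ± 0.33, adjusted p = 0.318). DKO control cells stood above Null control cells (0.98 ± 0.23, adjusted p = 0.00928), a call lost when the control libraries were fitted alone (0.97, adjusted p = 0.105), and the difference after etoposide was 0.35 ± 0.23, adjusted p = 0.273, which passed in the fit of the etoposide libraries alone (0.35, adjusted p = 0.0170). After the drug, Eno2 made up 1.23% ± 0.157 of the summed per-kilobase level of Eno1 and Eno2 in Null and 1.45% ± 0.142 in DKO cells. Eno1 ranged from 465 to 647 CPM. Its drug difference in Null cells, -0.29 ± 0.11, adjusted p = 0.0514, was just short of the threshold and passed without Null control replicate 1 (-0.36, adjusted p = 0.0236), DKO control replicate 1 (-0.30, adjusted p = 0.0120) or 3 (-0.29, adjusted p = 0.0232), or DKO etoposide replicate 3 (-0.30, adjusted p = 0.0450). It also passed in DESeq2 (-0.30, adjusted p = 0.0199), in limma-voom (-0.28, adjusted p = 0.0473), with the size factors of DESeq2 (-0.29, adjusted p = 0.0362), with no filter on low counts (-0.29, adjusted p = 0.0442), in the fit of the Null libraries alone (-0.29, adjusted p = 0.0299) and, at a larger size, after the correction for GC content and length (-0.45, adjusted p = 0.0103). Between lines in control cells Eno1 differed by -0.17 ± 0.11, adjusted p = 0.326, and by -0.29, adjusted p = 0.0389 without DKO control replicate 1. Eno1b, a near-identical copy, held counts equal to 9.93% of those of Eno1, and adding them changed no count of calls.

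Pkm, which makes pyruvate from phosphoenolpyruvate, had the highest level per kilobase of the 34 genes. It gave 5484, 5129.6 and 4907 CPM in Null control and 3719.6, 4029.7 and 3813 CPM in Null etoposide libraries. The DKO libraries gave 7981, 9449 and 9272 CPM in control and 7735, 7565 and 7666 CPM after the drug. All 6 DKO libraries were above all 6 Null libraries, with a genotype difference of 0.78 ± 0.087, adjusted p = 3.21e-05 in control and 0.99 ± 0.087, adjusted p = 2.32e-06 in treated cells. With the drug Pkm fell in Null cells (-0.42 ± 0.087, adjusted p = 0.00198). In DKO cells the difference was -0.21 ± 0.087, adjusted p = 0.0721, with groups that did not overlap, and it passed without DKO control replicate 1 (-0.28, adjusted p = 0.0136), with no filter on low counts (-0.22, adjusted p = 0.0272), in DESeq2 (-0.21, adjusted p = 0.0381) and after the correction for GC content and length (-0.41, adjusted p = 0.000559). Gene-level counts do not separate the PKM1 and PKM2 splice forms.

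**Figure D5:**
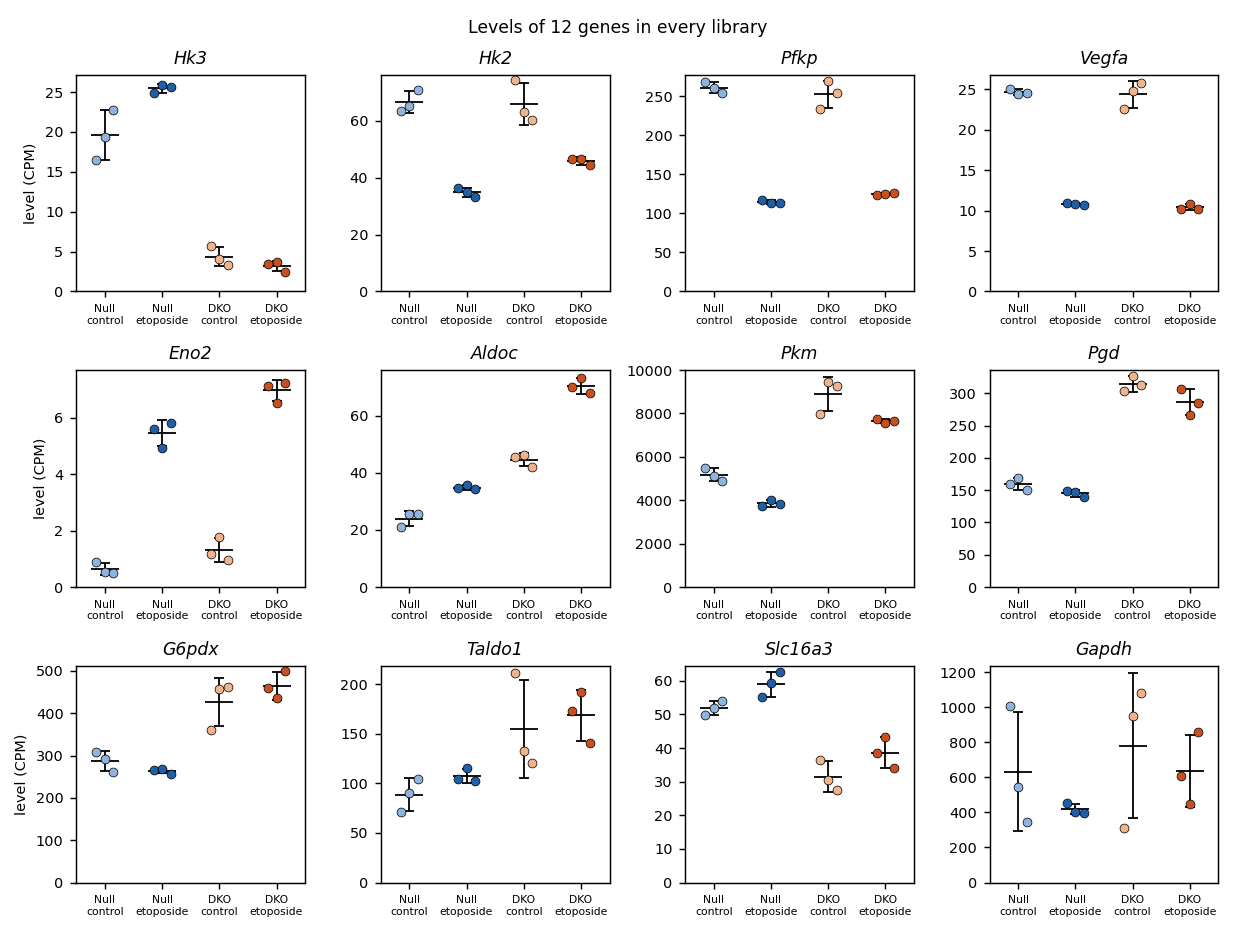
Level in CPM of 12 of the genes in each of the 12 libraries, with 1 panel per gene, points for libraries, a long line for the group mean and bars for the SD (n = 3); each axis starts at 0. Hk3 separates the lines, Hk2, Pfkp, Vegfa and Eno2 separate treated from control cells, Aldoc climbs in 4 steps, and the Gapdh libraries of most groups lie far apart.

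Ldha, the subunit of lactate dehydrogenase that favours lactate formation, gave 347, 434 and 445 CPM in Null control, 407, 428 and 387 in Null etoposide, 459, 388 and 337 in DKO control and 525, 534 and 479 CPM in DKO etoposide libraries. The DKO etoposide libraries were the highest of the 12, and Ldha rose with the drug in DKO cells (0.39 ± 0.12, adjusted p = 0.0219) but not detectably in Null cells (0.0022 ± 0.12, adjusted p = 0.991); the difference between the responses was 0.39 ± 0.17, adjusted p = 0.217. The rise was lost when the DKO libraries were fitted alone (0.39, adjusted p = 0.0512), without DKO control replicate 2 (adjusted p = 0.0520) or 3 (0.0922) and without DKO etoposide replicate 1 (0.0599) or 2 (0.0618), whereas without DKO control replicate 1 the difference between the responses passed (0.52, adjusted p = 0.0359). After etoposide the lines differed in Ldha by 0.33 ± 0.12, adjusted p = 0.0515, which passed without Null control replicate 1 (adjusted p = 0.0250) or 3 (0.0479) or DKO control replicate 1 (0.0153) or 3 (0.0304). It also passed in DESeq2 (0.33, adjusted p = 0.0228), in limma-voom (0.33, adjusted p = 0.0464), with the size factors of DESeq2 (0.33, adjusted p = 0.0390) and in the fit of the etoposide libraries alone (0.33, adjusted p = 0.00146).

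Pgam1, phosphoglycerate mutase, rose in DKO cells from 81.4, 70.4 and 58.4 to 103, 105 and 91.5 CPM (0.52 ± 0.12, adjusted p = 0.00400). In Null cells it went from 66.5, 83.9 and 81.1 to 93.6, 94.3 and 90.2 CPM with no overlap but short of the threshold (0.27 ± 0.12, adjusted p = 0.0918), which it passed without DKO control replicate 1 (0.26, adjusted p = 0.0481) or 3 (0.27, adjusted p = 0.0472). Pgk1, phosphoglycerate kinase, fell with the drug in Null cells, from 390.3, 406 and 356 to 319, 329 and 317 CPM (-0.25 ± 0.08, adjusted p = 0.0241), a call lost without Null control replicate 1 or 2 (adjusted p = 0.0525 and 0.0998) and without Null etoposide replicate 1, 2 or 3 (0.0586, 0.0510 and 0.0818). DKO cells held more Pgk1 than Null cells after etoposide (0.33 ± 0.08, adjusted p = 0.00714). Tpi1, triose phosphate isomerase, ranged from 299 to 449 CPM and was called nowhere; its drug difference in Null cells (-0.23 ± 0.088, adjusted p = 0.0571) passed without Null control replicate 1 (adjusted p = 0.0150), DKO control replicate 1 (0.0239) or 3 (0.0455) or DKO etoposide replicate 3 (0.0450), and its genotype difference in control cells (-0.20 ± 0.088, adjusted p = 0.148) without Null control replicate 1 (0.0436) or DKO control replicate 1 (0.0365). The drug difference of Tpi1 in Null cells also passed with the size factors of DESeq2 (-0.24, adjusted p = 0.0387), in the DESeq2 test (-0.24, adjusted p = 0.0169) and after the correction for GC content and length (-0.32, adjusted p = 0.00940), as did that in DKO cells with this correction (-0.28, adjusted p = 0.0168).

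Gapdh, glyceraldehyde 3-phosphate dehydrogenase, is widely used as a reference gene for expression. Its levels were 1006, 543 and 348 CPM in Null control, 452, 405 and 397 in Null etoposide, 313, 952 and 1079.8 in DKO control and 606, 445 and 858 CPM in DKO etoposide libraries. Replicates differed up to 2.89-fold in Null control, 3.45-fold in DKO control and 1.93-fold in DKO etoposide cells, against 1.14-fold in Null etoposide cells. Its SD within groups was 0.67 on the log2 scale, above that of 97.0% of tested genes, whose median was 0.21. With this spread no comparison passed, the differences running from -0.46 ± 0.45, adjusted p = 0.457 (drug, Null cells) to 0.56 ± 0.45, adjusted p = 0.381 (genotype, after etoposide). The cause of the spread was not tested.

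Pyruvate dehydrogenase kinases block the entry of pyruvate into the mitochondrial citric acid cycle. Pdk1 fell with etoposide in both lines, from 44.9, 50.6 and 54.8 to 34.4, 33.7 and 33.5 CPM in Null cells (-0.56 ± 0.10, adjusted p = 0.000497) and from 53.5, 44.3 and 45.2 to 33.7, 38.3 and 34.5 CPM in DKO cells (-0.42 ± 0.10, adjusted p = 0.00356). Treated and control libraries did not overlap in either line, and the lines overlapped in both conditions. Pdk3 ranged from 26.5 to 35.3 CPM and was called in no comparison; its drug difference in Null cells (0.20 ± 0.08, adjusted p = 0.0594) passed without DKO control replicate 1 (0.19, adjusted p = 0.0432). The drug difference of Pdk3 passed in Null and in DKO cells with library size alone (0.22, adjusted p = 0.0282 and 0.23, adjusted p = 0.0255) and after the correction for GC content and length (0.25, adjusted p = 0.0198 and 0.20, adjusted p = 0.0495).

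In the pentose phosphate pathway, the oxidative enzymes glucose 6-phosphate dehydrogenase (G6pdx) and 6-phosphogluconate dehydrogenase (Pgd), which make NADPH, and the transaldolase Taldo1 of the non-oxidative branch were higher in DKO cells. Thus 3 of the 6 genes were called for genotype in each condition, all 3 higher, where 10.9% of all tested genes were called higher in control cells and 15.9% after etoposide. Pgd gave 159, 169 and 150.0 CPM in Null control, 149, 147 and 139 in Null etoposide, 303, 326 and 313 in DKO control and 307, 266 and 285 CPM in DKO etoposide libraries. No DKO library lay below 266 CPM and no Null library above 169 CPM. DKO cells held 1.97 times the Null level in control (0.98 ± 0.075, adjusted p = 1.04e-06) and 1.97 times in treated cells (0.98 ± 0.075, adjusted p = 6.5e-07).

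G6pdx gave 307, 292 and 260.4 CPM in Null control, 264.8, 267 and 257 in Null etoposide, 359.8, 457 and 462 in DKO control and 460.1, 435 and 500.3 CPM in DKO etoposide libraries. The lines did not overlap, and DKO cells were higher by 0.57 ± 0.10, adjusted p = 0.00155 in control and 0.82 ± 0.10, adjusted p = 5.35e-05 in treated cells. For Taldo1 the libraries gave 71.2, 90.4 and 104 CPM in Null control, 105, 115 and 102 in Null etoposide, 212, 132 and 120.2 in DKO control and 173, 192 and 141 CPM in DKO etoposide cells. Here too every DKO library exceeded every Null library, but DKO control replicate 1 stood far above the other libraries of its group. The Taldo1 difference was 0.77 ± 0.20, adjusted p = 0.0148 in control cells, lost without Null control replicate 1 (0.63, adjusted p = 0.0543) or when the control libraries were fitted alone (0.77, adjusted p = 0.0867), and 0.64 ± 0.20, adjusted p = 0.0252 after etoposide, lost without Null etoposide replicate 1 (adjusted p = 0.0718) or 3 (0.0812) or DKO etoposide replicate 1 (0.0692) or 2 (0.0859).

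The remaining genes of the non-oxidative branch showed no genotype call. Rpia, ribose 5-phosphate isomerase, fell with etoposide in Null cells from 23.96, 30.7 and 31.97 to 20.8, 21.4 and 20.2 CPM (-0.46 ± 0.15, adjusted p = 0.0305), the 1 drug call among the 6 genes in either line. The drug thus called 16.7% of the 6 genes in Null and 0% in DKO cells, against 39.6 and 39.3% of all tested genes. The Rpia call was lost after the correction for GC content and length (-0.41, adjusted p = 0.0594), without Null control replicate 2 or 3 (adjusted p = 0.103 and 0.0990) and without Null etoposide replicate 1, 2 or 3 (0.0655, 0.0657 and 0.0909). In DKO cells Rpia differed by -0.33 ± 0.15, adjusted p = 0.109 with the drug, which passed without DKO control replicate 3 (-0.47, adjusted p = 0.0302), and the lines differed by -0.29 ± 0.15, adjusted p = 0.237 in control cells, which passed without DKO control replicate 1 (-0.48, adjusted p = 0.0158). Leaving out DKO control replicate 1 also brought in drug calls for Taldo1 (0.41, adjusted p = 0.0412) and Rpe (0.52, adjusted p = 0.0499) in DKO cells, for Tkt in Null cells (-0.26, adjusted p = 0.0475) and a genotype call for Rpe in control cells (-0.58, adjusted p = 0.0478), the last of which also passed without Null control replicate 1 (-0.59, adjusted p = 0.0498). In the fit of the etoposide libraries alone Rpe was lower in DKO cells (-0.32, adjusted p = 0.0127). Tkt (transketolase) ranged from 401 to 604 CPM and Rpe (ribulose phosphate epimerase) from 25.0 to 50.4 CPM. By the reckoning used for Pfkp, at most 6.33% of the Rpe counts could come from Kansl1l on the opposite strand.

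Of the hypoxia genes, Vegfa fell in both lines by nearly the same factor. It gave 25.1, 24.4 and 24.6 CPM in Null control, 10.97, 10.8 and 10.7 in Null etoposide, 22.6, 24.7 and 25.8 in DKO control and 10.2, 10.9 and 10.2 CPM in DKO etoposide libraries. All treated libraries lay at or below 10.97 CPM and all controls at or above 22.6 CPM, while the lines overlapped in both conditions. The fall was -1.19 ± 0.076, adjusted p = 1.57e-07 in Null and -1.22 ± 0.076, adjusted p = 8.01e-08 in DKO cells, and the difference between the falls was -0.032 ± 0.11 (adjusted p = 0.925). Hif1a gave 141, 145 and 155 CPM in Null control, 171, 161 and 162 in Null etoposide, 165, 175 and 192 in DKO control and 166, 181 and 191 CPM in DKO etoposide libraries. It was higher in DKO than in Null control cells (0.27 ± 0.079, adjusted p = 0.0310), and this call was lost in the fit of the control libraries alone (0.27, adjusted p = 0.147), with library size alone (0.19, adjusted p = 0.0856), with no filter on low counts (0.27, adjusted p = 0.0539) and without any 1 of 7 libraries: Null control replicate 1 or 2 (adjusted p = 0.0787 and 0.101), DKO control replicate 2 or 3 (0.0980 and 0.120), Null etoposide replicate 1 or 3 (0.0644 and 0.0514) and DKO etoposide replicate 2 (0.0657). With the drug in Null cells Hif1a differed by 0.16 ± 0.079, adjusted p = 0.127, which passed after the correction for GC content and length (0.27, adjusted p = 0.00351). Transcript levels say nothing of HIF1A protein, which is regulated mainly by degradation.

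Bnip3, a mitophagy receptor, ranged from 14.1 to 23.9 CPM and was called in no comparison. Without Null control replicate 1, its lowest library, it passed for the drug in Null (-0.42, adjusted p = 0.00404) and in DKO cells (-0.23, adjusted p = 0.0482), and in the fit of the etoposide libraries alone it was higher in DKO cells (0.22, adjusted p = 0.0494). By the reckoning used for Pfkp, up to 58.4% of the Bnip3 counts could come from the antisense gene Gm45507. That holds only if reads of the opposite strand were counted for Bnip3, and the strand setting is not given, so its level is uncertain.

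Whether the response to etoposide differed between the lines was tested by the interaction, the DKO response minus the Null response. None of the 33 genes passed in limma-trend, where 9.45% of all tested genes did (3.07% higher and 6.39% lower). EdgeR and limma-voom gave 0 while DESeq2 gave 4 (Hk1, Hk2, Hk3 and Pfkfb3). These tests called 1663, 1679 and 2253 of all 18066 tested genes. In limma-trend 6 of the 33 genes had an unadjusted p under 0.05. The 6 genes were Hk1 (0.30 ± 0.10, adjusted p = 0.0979), Hk2 (0.41 ± 0.12, adjusted p = 0.0502), Hk3 (-0.81 ± 0.28, adjusted p = 0.101), Pfkfb3 (0.37 ± 0.12, adjusted p = 0.0864), Pgk1 (0.29 ± 0.11, adjusted p = 0.159) and Ldha (0.39 ± 0.17, adjusted p = 0.217). A call in 1 line and not in the other, as for Hk1, Pfkfb3, Pgk1, Pkm and Rpia in Null or Slc16a1, Pgam1 and Ldha in DKO cells, is therefore not shown to be a difference between the lines. Leaving out DKO control replicate 1 gave 2 calls, Hk2 and Ldha, and raised the counts of the 4 other comparisons to 17, 15, 18 and 17. Of all 18514 genes tested in that fit, 2038 were called for the interaction and 8036, 7895, 4721 and 7004 in the other comparisons.

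Other genes of these pathways, from lists chosen like the 34, were counted in the same fit. Of 29 tested genes of glycolysis and pyruvate handling (36 listed), 6 rose and 5 fell with etoposide in Null and 8 rose and 3 fell in DKO cells, or 37.9% in each line against 39.6 and 39.3% of all tested genes. Slc2a4, the insulin-responsive transporter GLUT4, went from 0, 0.0202 and 0 CPM to 1.24, 0.947 and 1.83 CPM in Null cells and from 0.0188, 0.0359 and 0 CPM to 0.945, 0.927 and 0.954 CPM in DKO cells. With at most 2 reads in any control library it passed the filter on low counts only through the etoposide groups, so it is given as a description, with no fold and no test, although it is among the genes counted as rising. Slc16a7, the monocarboxylate transporter MCT2, fell with the drug, with log2 differences of -1.41 ± 0.12 in Null and -1.09 ± 0.12 in DKO cells (adjusted p = 2.47e-06 and 1.94e-05). Between lines, Pdk2 was higher in DKO cells, at 3.02, 4.31 and 5.06 against 0.973, 1.01 and 0.639 CPM in control (2.16 ± 0.23, adjusted p = 2.08e-05) and with a difference of 1.78 ± 0.23, adjusted p = 6.89e-05 after etoposide, and the ADP-dependent glucokinase Adpgk was higher after etoposide (0.99 ± 0.23, adjusted p = 0.00567). In this list 2 genes were called higher and 4 lower in DKO control cells, and 7 higher and 6 lower after the drug (20.7 and 44.8%, against 19.3 and 33.6%). The log2 differences between lines in this list ran from -2.40 to 2.16 in control cells and from -1.80 to 1.78 after etoposide.

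Of 28 tested HIF target genes beside the 34 (31 listed), 9 rose and 6 fell with etoposide in Null and 7 rose and 7 fell in DKO cells (53.6 and 50%, against 39.6 and 39.3% of all tested genes), with medians of 0.24 and 0.082, against 0.026 and 0.029 over all tested genes. Ddit4, an mTORC1 inhibitor that p53 also induces, rose in Null (3.45 ± 0.38, adjusted p = 1.5e-05) and DKO cells (2.30 ± 0.38, adjusted p = 0.000382). Stc2, a secreted glycoprotein of stress responses, fell in both (-3.24 ± 0.28, adjusted p = 1.72e-06 and -3.68 ± 0.28, adjusted p = 4.35e-07), and so did Ndrg1 (-1.09 ± 0.12, adjusted p = 1.43e-05 and -2.51 ± 0.12, adjusted p = 5.72e-09). Targets of HIF therefore moved in both directions, as Vegfa fell and Slc2a1 rose among the 34. Between lines, 6 were higher and 7 lower in DKO control cells and 7 higher and 10 lower after etoposide (46.4 and 60.7%, against 19.3 and 33.6%). Nos2, the inducible nitric oxide synthase of macrophages, was lower in DKO cells (-4.90 ± 0.20, adjusted p = 4.61e-09 in control and -4.54 ± 0.20, adjusted p = 4.35e-09 after etoposide), as was the adenylate kinase Ak4 in control cells (-2.50 ± 0.23, adjusted p = 5.05e-06). Cxcr4 gave 0.928 to 1.97 CPM and the lysyl hydroxylase Plod2 0.0808 to 0.42 CPM in Null libraries, and neither exceeded 0.162 CPM in DKO libraries, some of which held no count. Both passed the filter on low counts only through Null groups, so these values are a description with no test, although both are counted among the lower genes. Pdgfb (1.48 ± 0.10, adjusted p = 4.13e-07), a platelet-derived growth factor chain, was higher in DKO control cells.

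The interaction, with no call among the 34 genes, was called for 2 of the other glycolysis and pyruvate genes, 1 HIF regulator and 5 of the other HIF targets (6.90, 11.1 and 17.9% of their lists, against 9.45% of all tested genes), and in limma-trend for 0 of 11 glycogen genes and 0 of 10 genes of the wider pentose phosphate and nucleotide sugar pathways, with 2 and 1 at an unadjusted p under 0.05. The called genes included Ndrg1 (-1.42 ± 0.17, adjusted p = 0.000142), which fell further in DKO cells, and Pdgfb (-1.27 ± 0.14, adjusted p = 8.77e-05), which rose in Null (0.74 ± 0.10, adjusted p = 9.62e-05) and fell in DKO cells (-0.53 ± 0.10, adjusted p = 0.00119). The glucose transporter Slc2a6 (0.60 ± 0.12, adjusted p = 0.00799) rose with the drug in DKO cells (0.44 ± 0.087, adjusted p = 0.00156), from 16.8, 14.3 and 13.5 to 21.4, 19.8 and 19.02 CPM, against a Null difference of -0.16 ± 0.087, adjusted p = 0.168. Mxi1, a MYC antagonist, fell in Null cells (-0.32 ± 0.074, adjusted p = 0.00431) and gave 0.086 ± 0.074, adjusted p = 0.397 in DKO cells, and its interaction was 0.40 ± 0.10, adjusted p = 0.0287. Of 9 tested HIF regulators (10 listed) 3 rose and 1 fell with etoposide in Null cells and 2 rose and 1 fell in DKO cells, none was called between the lines in control cells, with 2 at an unadjusted p under 0.05, and 1 was higher and 2 lower in DKO cells after etoposide (44.4, 33.3, 0 and 33.3% in that order). Of 10 tested genes of the wider pentose phosphate and nucleotide sugar pathways (11 listed), 3 were higher and 1 lower in DKO cells in each condition, and the drug lowered 2 in Null cells and raised 2 and lowered 2 in DKO cells (40.0% called in 3 of the comparisons and 20% for the drug in Null cells). Of 11 tested glycogen genes (13 listed), the drug raised 1 and lowered 3 in Null cells and raised 3 and lowered 4 in DKO cells, and 2 were higher and 1 lower in DKO control and 3 higher and 1 lower in DKO etoposide cells (36.4, 63.6, 27.3 and 36.4%). The shares of all tested genes called in these 4 comparisons were 39.6, 39.3, 19.3 and 33.6%.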

How the data were processed

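RNA-seq counts of 12 libraries (4 groups of 3) were used as the authors deposited them, as whole-number read counts per gene before any normalisation. According to the submitters' processing notes reads were aligned with HISAT2 to mm10 and counted with featureCounts, whereas the methods of the study name HTSeq for counting; versions, the annotation release and the strand setting are not given in the sources used here. The methods name a stranded library kit and 2 RNA extraction kits, and no label assigns the extraction kits to libraries. All 32688 gene identifiers were found in GENCODE M21, which supplied symbols, coordinates and exon lengths.

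Genes were kept by filterByExpr on the 4 groups (18066 genes), scaled by TMM (factors 0.939 to 1.03) and converted to log2 CPM with a prior count of 3. The limma-trend test (limma 3.58.1, edgeR 4.0.16, R 4.3.3, robust) was fitted to the 12 libraries together with 1 mean per group, and p values were adjusted by Benjamini-Hochberg over all 18066 genes with a threshold of 0.05. Printed CPM values carry no prior count, so a ratio of printed means can differ from the fitted fold of a low gene such as Eno2. Levels per kilobase divide CPM by the merged exon length of a gene. The script was tested on simulated counts first.

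The 34 genes and the other lists were chosen with earlier results of these data known. All 34 are named; values per library are given for genes called with an absolute log2 difference of at least 0.58 and for other members that a sentence turns on. From the other lists, at most the 3 called genes with the largest rise and the 3 with the largest fall in each comparison are named, apart from 1 gene that is not reported here. Alternatives were edgeR's quasi-likelihood test, DESeq2 1.42.0, limma-voom, other scalings, filters and prior counts, a replicate block, a correction for GC content and length, and leaving out each library.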

Additional observations from a re-analysis of the deposited data

How the results depend on the processing

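No difference of the 33 genes that was called turned its direction under any of the alternatives. Requiring an absolute log2 difference of at least 1 left 3 and 3 drug calls in Null and DKO cells and 1 and 2 genotype calls in control and treated cells. Of all 18066 tested genes, 2381, 2370, 1365 and 2167 remained in the same order. When only the groups compared were fitted, 8 genes were called between the lines in control cells instead of 13 and 20 instead of 15 after etoposide, and 14 and 9 for the drug in Null and DKO cells instead of 12 and 10. The counts over all 18066 tested genes moved in the same directions, to 2070 from 3490, 8272 from 6079, 7399 from 7148 and 5946 from 7108. The cause was not tested. The interaction, with 0 calls in limma-trend, gave 1 call with library size alone, 1 with the size factors of DESeq2 and 4 in the DESeq2 test. Of all 18066 tested genes, 1693, 1731 and 2253 were called in these fits. Leaving out 1 library at a time gave 10 to 17 and 8 to 15 drug calls in Null and DKO cells, 11 to 18 and 12 to 17 genotype calls in control and treated cells, and 0 to 2 interaction calls. The highest count was that without DKO control replicate 1 in each case. Over all tested genes, too, that fit gave the highest counts, 8036, 7895, 4721, 7004 and 2038 of 18514, against 7148, 7108, 3490, 6079 and 1708 of 18066 with all libraries. A correction for GC content and length gave 16, 15, 12, 14 and 0 calls in the same order, bringing in Aldoa, Tpi1, Eno1, Pdk3 and Hif1a in the drug comparison of Null cells and Hk1, Hk3, Tpi1, Pkm and Pdk3 in that of DKO cells. Over all 18066 tested genes the correction gave 7117, 7046, 3720, 6223 and 1850 calls. The cause was not tested. Calls that held in all alternatives other than the fold minimum numbered 10 of 12, 8 of 10, 8 of 13 and 12 of 15 in the 4 comparisons between groups.

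Whether the replicate numbers pair the samples was not tested. The 18 correlations between the deviations of same-numbered libraries ran from -0.54 to 0.39, and none was computed for libraries of different numbers. With the number as a block, 11, 10, 12, 14 and 0 genes were called, with the calls lost for Rpia (drug, Null cells, adjusted p = 0.0554), Pfkfb4 (genotype, control cells, 0.0931) and Slc16a1 (genotype, after etoposide, 0.0704), and with the block and the correction for GC content and length together 16, 11, 12, 12 and 0. Over all 18066 tested genes the block gave 6450, 6420, 3009, 5394 and 1310 calls, and the block with the correction 6393, 6267, 3158, 5420 and 1398. Depth limits the lowest genes: Egln3 could not be tested, and Eno2 had as few as 24 counts in a library.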

Other observations

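The level of Gapdh and that of Taldo1 ran in opposite order within groups, a pattern that was noticed after the values were seen and was not tested. In Null control, DKO control and DKO etoposide cells the library with the most Gapdh had the least Taldo1, and the library with the least Gapdh had the most Taldo1. In DKO control cells Gapdh was 313, 952 and 1079.8 CPM where Taldo1 was 212, 132 and 120.2 CPM in replicates 1, 2 and 3, and in DKO etoposide cells Gapdh was 606, 445 and 858 CPM where Taldo1 was 173, 192 and 141 CPM. The libraries of Null etoposide cells, in which Gapdh varied least, did not show this order. In the other groups Slc2a1, Slc16a3, Hk3 and Tkt, among others, also ran opposite to Gapdh, while G6pdx ran with it. The order was therefore not particular to Taldo1. The median SD of the 33 genes within a group was 0.14 (log2) in Null control and 0.18 in DKO control libraries, against 0.052 and 0.1 in the etoposide libraries of the same lines, and over all tested genes it was 0.21, 0.24, 0.09 and 0.15.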
